A study of Mus musculus with 18 samples.

Results

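Collagen genes were taken as the protein-coding mouse genes whose symbol reads Col, a number, the letter a and a number, such as Col1a1, after the gene IDs of the files had been matched to the GENCODE M21 annotation. The rule used no measured value and found 44 genes among the 21936 protein-coding genes listed. They were measured by bulk RNA sequencing of total RNA from skin of C57BL/6 mice aged 8 to 12 weeks. Of the 18 libraries, 6 came from skin treated with Detergent B, 6 from skin treated with Detergent A and 6 from skin given PBS, phosphate-buffered saline, as the control. The detergents are household laundry products that the labels name only by letter, and the labels give no dose, duration, body site or day of collection. The labels do not say that each library came from its own animal, so each p-value reflects only the spread among these libraries. In bulk skin, fewer cells of a type and less RNA per cell cannot be told apart.

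Libraries held 17312623 to 29599018 counts. Levels are given as CPM, the count divided by the library size after TMM scaling, in the usual unit, and, where genes are compared with each other, as CPM per kilobase of exon. A filter on low counts left 16836 genes, among them 39 of the 44 collagen genes. Changes were tested with edgeR's quasi-likelihood test, with Benjamini-Hochberg adjustment over the 16836 genes and a threshold of 0.05. Skin markers were present in every library: the summed level of 10 epidermal keratinocyte genes was 28283 to 48712 CPM with Detergent B, 21761 to 53293 CPM with Detergent A and 16784 to 33113 CPM with PBS. The summed level of 10 fibroblast genes was 580 to 883 CPM with Detergent B, 568 to 772 CPM with Detergent A and 582 to 912 CPM with PBS. RNA of skeletal muscle was also present, with a summed level of 7 marker genes of 5603 to 12988 CPM with Detergent B, 4261 to 9498 CPM with Detergent A and 4456 to 8979 CPM with PBS. Hair shaft keratins varied most: 12 of 13 listed genes were measured, none was at 0 in all libraries, and their sum was 6.85 to 197 CPM with Detergent B, 9.47 to 296 CPM with Detergent A and 23.0 to 495 CPM with PBS. None of these 12 genes passed the test against PBS for either detergent. Written as a score, the mean log2 CPM of the list relative to the PBS mean, hair keratins stood at -2.59 in PBS replicate 6 against -0.33 to 1.79 in the other PBS libraries, and at 0.46 in Detergent A replicate 2 against -4.90 to -1.04 in the other Detergent A libraries. Detergent B libraries had scores of -4.47 to -0.37.

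Collagens are secreted or membrane proteins whose chains wind into triple helices rich in glycine and proline. In skin, dermal fibroblasts make most of the fibril-forming collagens, type I with types III and V, which give the dermis its tensile strength. Type IV forms the sheets of basement membranes, type VII anchors the epidermal basement membrane to the dermis, and type XVII is a transmembrane protein of the hemidesmosomes that hold basal keratinocytes to that membrane. Other collagens coat fibrils, form fine filaments or span cell membranes.

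Promoters are shown for Col16a1, the collagen gene that passed the test with either detergent, and for Col3a1, whose level relative to Col1a1 separated detergent-treated from PBS libraries. The RefSeq promoter table (GRCm38.p6, a patch of the assembly the files use) matched 35 of the 44 genes. The 250 bases before each start lie on the + strand, at chr4:130047590-130047839 for Col16a1 and at chr1:45311288-45311537 for Col3a1, and capitals mark matches, searched on both strands, to a CCAAT box (CCAAT), a GC box whose core reads GGGCGG and a TATA box spelled TATAAA.
Col16a1: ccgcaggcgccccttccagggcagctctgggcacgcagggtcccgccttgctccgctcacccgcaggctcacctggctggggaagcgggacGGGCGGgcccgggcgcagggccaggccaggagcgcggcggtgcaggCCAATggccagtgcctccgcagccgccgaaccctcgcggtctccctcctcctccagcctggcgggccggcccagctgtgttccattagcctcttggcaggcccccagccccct
Col3a1: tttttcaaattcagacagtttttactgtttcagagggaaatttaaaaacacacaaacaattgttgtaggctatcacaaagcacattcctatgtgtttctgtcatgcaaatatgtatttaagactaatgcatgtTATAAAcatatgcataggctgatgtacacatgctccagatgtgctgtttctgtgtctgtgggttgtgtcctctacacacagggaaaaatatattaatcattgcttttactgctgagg
The Col16a1 window has a GC content of 75.6%, holds the CCAAT box 113 bases and the GC box 159 bases before the start, and also contains the first exon of Gm12963, a noncoding gene on the opposite strand. The Col3a1 window has a GC content of 35.2% and holds the TATA box letters 117 bases before the start. The motifs share no bases with each other in these windows. The CCAAT box letters were in 33.8%, those of the GC box in 32.7% and those of the TATA box in 12.4% of the 32851 windows of all genes. Of the 38 windows of collagen genes, 13 held the CCAAT box, 22 the GC box and 5 the TATA box.

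Fibril-forming collagens made up the largest class by summed CPM in all groups, and the order of the highest genes differed between groups. With Detergent B the highest levels per kilobase were those of Col3a1 at 241 CPM per kb, the hemidesmosomal Col17a1 at 213 CPM per kb and Col1a1 at 154 CPM per kb. With Detergent A they were those of Col17a1 at 244 CPM per kb, Col3a1 at 183 CPM per kb and Col1a1 at 124 CPM per kb. In PBS skin the highest levels per kilobase were those of Col1a1 at 252 CPM per kb and Col3a1 at 235 CPM per kb, followed by Col17a1 at 212 CPM per kb. Col1a2, the second chain of type I collagen, stood at 165 CPM per kb, and Col6a1 of the type VI microfibrils at 109 CPM per kb. This order depends on the length used, which joins all annotated exons of a gene, 12426 bases for Col1a2 and 6563 for Col1a1. Without division by length, the PBS means were 2308 CPM for Col3a1, 2053 for Col1a2, 1656 for Col1a1 and 1277 for Col17a1. At the other end, 5 genes did not pass the low-count filter. These were Col9a1, Col9a2 and Col10a1, known from cartilage, with Col19a1 and Col22a1, and their counts per library lay between 0 and 22. Col9a2 had 2 to 13 counts with Detergent B, 3 to 7 with Detergent A and 8 to 22 with PBS. Col10a1 of hypertrophic cartilage had 0 counts in every Detergent B library, which allows up to 3 counts in each, against 0 to 3 counts with Detergent A and 0 to 3 with PBS. Col9a1 had 0 or 1 count with Detergent B, 0 to 2 with Detergent A and 0 to 3 with PBS. Col22a1 had 2 to 13 counts with Detergent B, 4 to 12 with Detergent A and 1 to 12 with PBS, and Col19a1 had 0 to 4 counts in each detergent group and 0 to 6 with PBS.

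**Figure D1:**
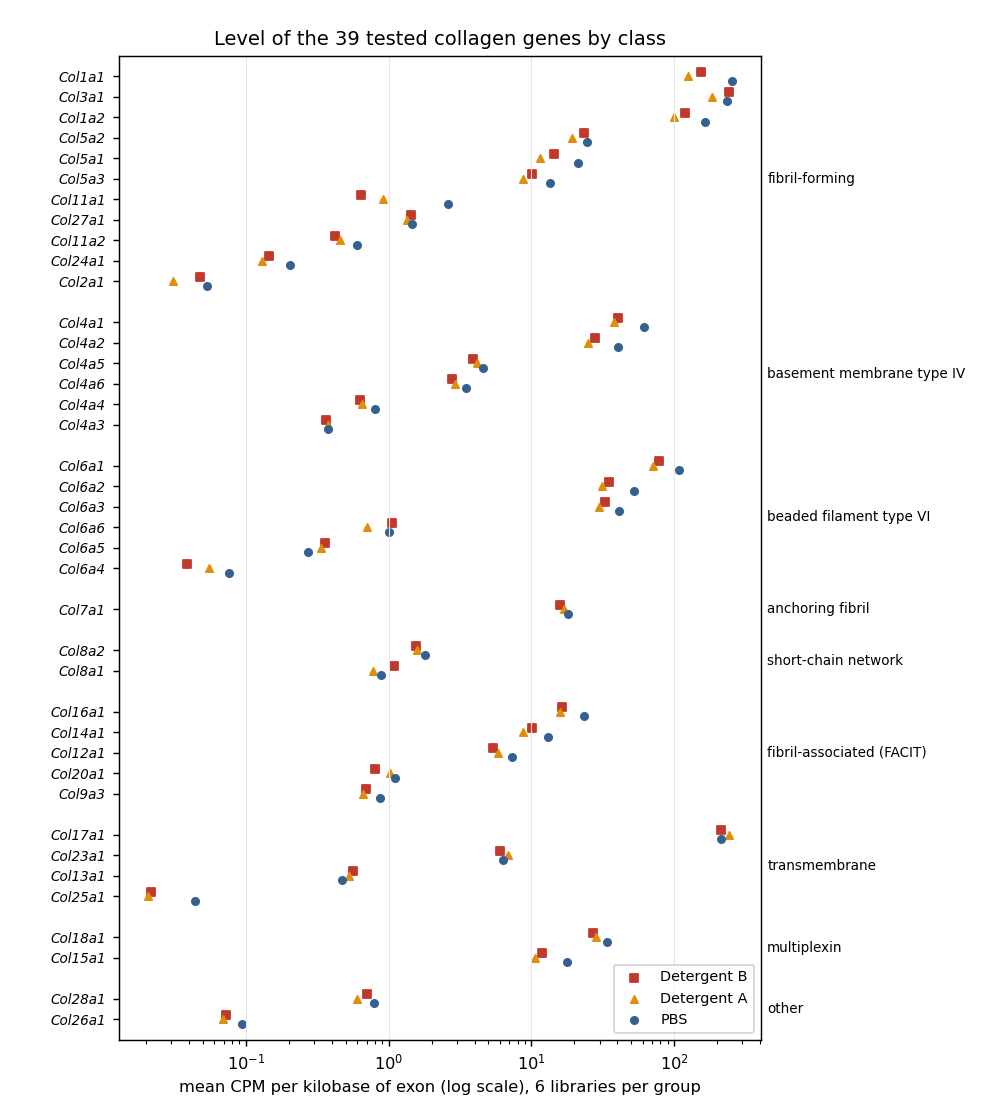
Mean level of each of the 39 tested collagen genes in CPM per kilobase of exon, on a log axis, with genes grouped by class and ordered by their PBS level. Squares, triangles and circles stand for the means of 6 Detergent B, 6 Detergent A and 6 PBS libraries; levels run from 0.0205 CPM per kb for Col25a1 with Detergent A to 252 CPM per kb for Col1a1 with PBS.

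All 44 collagen genes together took 0.861% ± 0.105 of the counts with Detergent B, 0.786% ± 0.255 with Detergent A and 1.17% ± 0.222 with PBS (SD, n = 6 each). The share ranged over 0.711% to 1.03% with Detergent B, 0.546% to 1.24% with Detergent A and 0.851% to 1.47% with PBS, so the groups overlapped. Counting error was small beside this spread: the widest 95% exact binomial interval of a library's share spanned 0.00989 percentage points, and such intervals cover counting error only. By class, the fibril-forming genes summed to 5309 ± 1023 CPM with Detergent B, 4223 ± 1859 CPM with Detergent A and 6582 ± 1624 CPM with PBS. Type IV genes summed to 546 ± 145 CPM with Detergent B, 511 ± 188 CPM with Detergent A and 795 ± 202 CPM with PBS. Type VI genes summed to 1038 ± 177 CPM with Detergent B, 936 ± 308 CPM with Detergent A and 1416 ± 330 CPM with PBS. Fibril-associated genes summed to 271 ± 45.0 CPM with Detergent B, 265 ± 62.0 CPM with Detergent A and 370 ± 78.2 CPM with PBS, and the multiplexins Col15a1 and Col18a1 to 266 ± 43.3, 266 ± 38.9 and 351 ± 81.9 CPM in the same order of groups. Transmembrane collagens, almost all of it Col17a1, summed to 1319 ± 235 CPM with Detergent B, 1507 ± 396 CPM with Detergent A and 1316 ± 367 CPM with PBS. In these sums the transmembrane class made up 14.9% of collagen CPM with Detergent B, 20.8% with Detergent A and 12.6% with PBS, while the fibril-forming class made up 59.1%, 51.6% and 59.0%. In every class the range of each detergent group overlapped that of PBS.

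Against PBS, Col16a1 fell with either detergent, and it was the sole collagen gene to pass the test. With Detergent B, 1 of 39 collagen genes fell, which is 2.56%, against 1.08% of all genes tested, and 0 rose, against 1.97% of all genes. With Detergent A, 1 of 39 fell, against 0.137% of all genes, and 0 rose, against 0.0535%. The counts of 0 risen held for DESeq2 and limma voom as well. Of all 16836 genes, DESeq2 called 850 higher with Detergent B and 475 with Detergent A. In either direction limma voom called 5073 genes with Detergent B, 2510 of them lower, and 3919 with Detergent A, 2027 of them lower. By edgeR, 11 of 39 collagen genes had an unadjusted p under 0.05 with Detergent B and 13 of 39 with Detergent A, all lower. Of all 16836 genes, 3931 had such a p in either direction with Detergent B and 3158 with Detergent A. The split of these genes by direction is not given here, so that of the collagen genes cannot be set against it. The median log2 fold change of the 39 genes was -0.35 with Detergent B and -0.40 with Detergent A, beside -0.01 over all genes in either comparison. Point estimates were below 0 for 33 of 39 with Detergent B, against 51.3% of all genes, and for 34 of 39 with Detergent A, against 51.6%. Both comparisons use the same PBS libraries.

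Col16a1 (ENSMUSG00000040690, GRCm38 chr4:130047840-130099283, + strand) encodes a fibril-associated collagen found near the dermal-epidermal junction. It had 99.2, 103 and 135 CPM (lowest, median, highest) with Detergent B, 92.5, 104 and 121 CPM with Detergent A, and 132, 156 and 190 CPM with PBS. All Detergent A libraries lay below all PBS libraries. Among Detergent B libraries only replicate 5, at 135 CPM, reached into the PBS range, above PBS replicate 4 at 132 CPM. The log2 fold change was -0.50 ± 0.10 (SE; adjusted p = 0.0178, edgeR) with Detergent B and -0.57 ± 0.10 (adjusted p = 0.0392, edgeR) with Detergent A. With each of the 18 libraries left out in turn, the Detergent B call was kept in 15 edgeR fits and lost without PBS replicate 2 (adjusted p = 0.0611), PBS replicate 3 (0.0540) or Detergent B replicate 2 (0.0528). The Detergent A call was kept in 8 and lost without any of PBS replicates 1, 2, 3 and 5, without any of replicates 1, 3, 4 and 5 of Detergent A, and without replicate 5 or 6 of Detergent B, with edgeR adjusted p of 0.0516 to 0.133 and log2 fold changes of -0.51 to -0.59. Both calls were kept without PBS replicate 6 and without Detergent A replicate 2, the libraries that stood apart in hair keratins. Leaving out either library moves Detergent A and PBS further apart in hair keratins. These 2 fits therefore do not test the part of hair keratins in the calls. With the hair keratin score as a covariate the log2 fold change was -0.43 ± 0.12 for Detergent B and -0.50 ± 0.12 for Detergent A, and neither passed (edgeR adjusted p = 0.213 and 0.182). DESeq2 gave adjusted p of 0.000368 for Detergent B and 0.000186 for Detergent A.

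**Figure D2:**
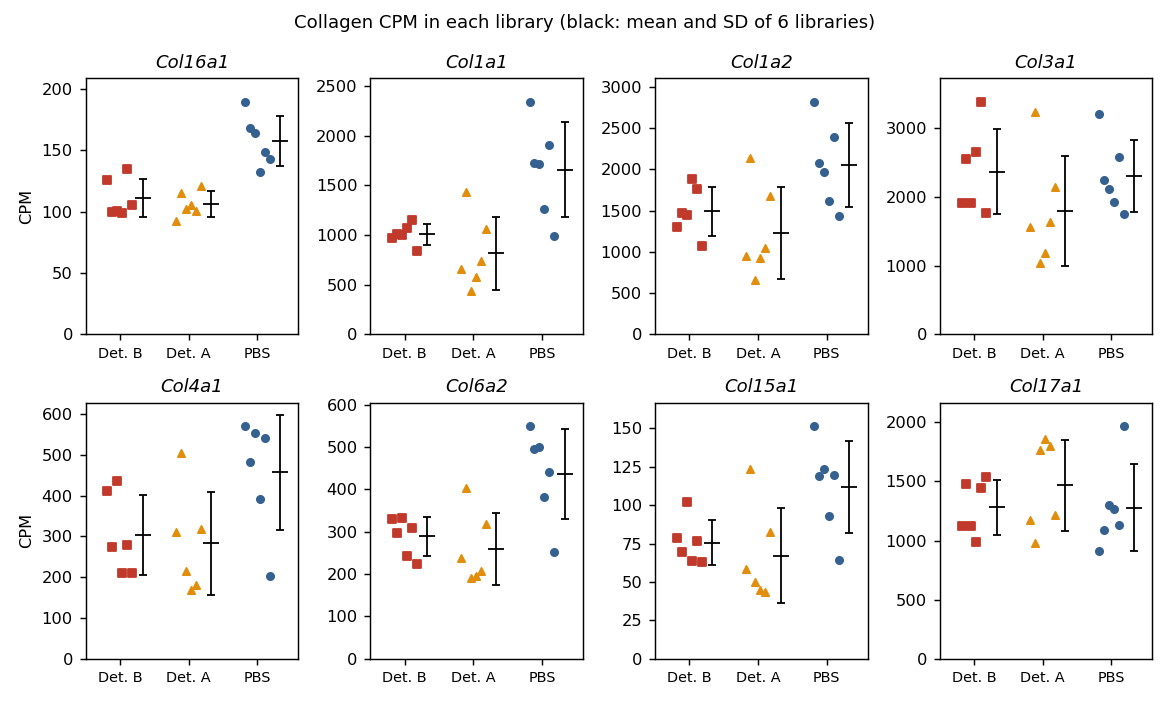
CPM of 8 collagen genes in each library, with Detergent B, Detergent A and PBS from left to right and a linear axis from 0; points are libraries in replicate order, black marks the mean and SD of 6. Col16a1 shows Detergent A libraries at 92.5 to 121 CPM below all PBS libraries at 132 to 190 CPM, while the group ranges of Col3a1 and of Col17a1 overlap.

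Among the fibril-forming collagens none passed the test. Col1a1 and Col1a2 encode the chains of type I collagen, the main fibril protein of dermis. Col1a1 had 841, 1008 and 1152 CPM (lowest, median, highest) with Detergent B, 433, 696 and 1436 CPM with Detergent A, and 990, 1717 and 2340 CPM with PBS. All 6 Detergent B and all 6 Detergent A libraries lay below the PBS mean, but PBS replicate 6 fell within both detergent ranges and PBS replicate 4 within that of Detergent A. The Col1a1 log2 fold change was -0.72 ± 0.24 (adjusted p = 0.0952, edgeR) with Detergent B and -1.02 ± 0.24 (adjusted p = 0.0595, edgeR) with Detergent A. Col1a2 had 1066, 1459 and 1889 CPM with Detergent B, 660, 999 and 2143 CPM with Detergent A, and 1437, 2024 and 2820 CPM with PBS. The Col1a2 log2 fold change was -0.46 ± 0.24 with Detergent B and -0.74 ± 0.24 with Detergent A (edgeR adjusted p = 0.255 and 0.130).

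Col3a1, the chain of type III collagen that co-assembles with type I in pliable tissue, differed from Col1a1. It had 1775, 2236 and 3388 CPM with Detergent B, 1039, 1597 and 3242 CPM with Detergent A, and 1756, 2186 and 3204 CPM with PBS. The Detergent B range was close to that of PBS, and Detergent A replicates 1, 3, 4 and 5 lay below all PBS libraries. The Col3a1 log2 fold change was 0.04 ± 0.24 with Detergent B and -0.36 ± 0.24 with Detergent A (edgeR adjusted p = 0.942 and 0.433). The ratio of Col3a1 to Col1a1, per kilobase, was 1.28 to 1.97 with Detergent B, 1.35 to 1.60 with Detergent A and 0.828 to 1.19 with PBS. No detergent library reached down to the PBS range, and the group means were 1.55 ± 0.267, 1.49 ± 0.103 and 0.955 ± 0.130 in the same order of groups (SD, n = 6 each). Relative to Col1a2, Col3a1 also lay apart, at 1.68 to 2.43 with Detergent B, 1.62 to 2.07 with Detergent A and 1.37 to 1.55 with PBS. These ratios were chosen after their values were seen and are given with no test. PBS replicate 6, the PBS library with the lowest hair keratin score, had the highest Col3a1 to Col1a1 ratio of the PBS group, 1.19. Detergent A replicate 2, whose score of 0.46 lay within the PBS range, had a ratio of 1.51, above all PBS libraries. The part of hair keratins in the ratio was not tested.

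**Figure D3:**
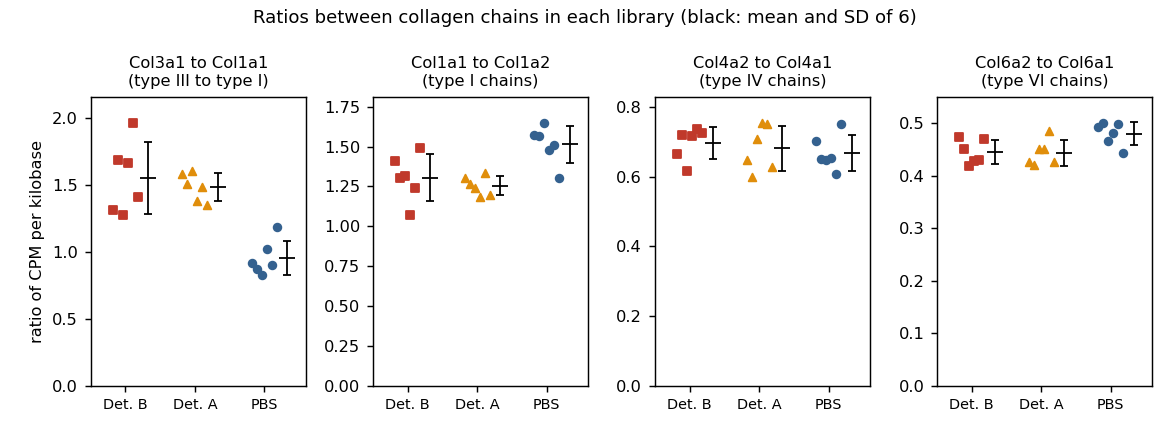
Ratios of CPM per kilobase between collagen chains in each library on linear axes from 0, with Detergent B, Detergent A and PBS from left to right; black marks the mean and SD of 6. Col3a1 to Col1a1 separates the detergent libraries, at 1.28 or above, from the PBS libraries, at 1.19 or below, while the other 3 ratios drawn overlap between each detergent group and PBS.

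Ratios between chain partners of 1 collagen type overlapped between each detergent group and PBS for the pairs given here. Col1a1 to Col1a2 stood at 1.30 ± 0.147 with Detergent B, 1.25 ± 0.0590 with Detergent A and 1.51 ± 0.118 with PBS per kilobase. Its overlap with Detergent A, at 1.33 or below, rested on PBS replicate 6 at 1.30, and the other PBS libraries had 1.48 or above. Col5a2 to Col5a1 was 1.63 ± 0.212 with Detergent B, 1.79 ± 0.338 with Detergent A and 1.22 ± 0.217 with PBS, a log2 difference of means of 0.42 with Detergent B and 0.55 with Detergent A. Its overlap rested on PBS replicate 6 at 1.63. The other PBS libraries had 1.06 to 1.29, below the lowest Detergent B library at 1.43 and the lowest Detergent A library at 1.31. Col4a4 to Col4a3 was 1.75 ± 0.223 with Detergent B, 1.76 ± 0.435 with Detergent A and 2.19 ± 0.367 with PBS. Col4a2 to Col4a1 was 0.696 ± 0.0465 with Detergent B, 0.681 ± 0.0659 with Detergent A and 0.668 ± 0.0508 with PBS. Col6a2 to Col6a1 was 0.445 ± 0.0235 with Detergent B, 0.443 ± 0.0249 with Detergent A and 0.480 ± 0.0222 with PBS. Several partners are neighbours in the genome: Col4a1 and Col4a2 lie head to head on chromosome 8 and overlap by 22 bases, and Col4a3 and Col4a4 lie head to head on chromosome 1 with 71 bases between them. Col4a5 and Col4a6 lie head to head on the X chromosome with 1308 bases between them. Col3a1 and Col5a2 are also neighbours on chromosome 1, 24614 bases apart.

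The type V chains regulate the diameter of type I fibrils. Col5a1 had 102, 121 and 148 CPM with Detergent B, 48.8, 83.9 and 174 CPM with Detergent A, and 96.8, 194 and 244 CPM with PBS, with a log2 fold change of -0.56 ± 0.26 with Detergent B and -0.88 ± 0.26 with Detergent A (edgeR adjusted p = 0.195 and 0.0950). Col5a2 had 165, 213 and 300 CPM with Detergent B, 128, 172 and 312 CPM with Detergent A, and 178, 235 and 319 CPM with PBS (log2 fold change -0.08 ± 0.20 and -0.36 ± 0.20). Col5a3 had 50.7 to 82.1 CPM with Detergent B, 44.0 to 92.1 CPM with Detergent A and 59.6 to 136 CPM with PBS (log2 fold change -0.43 ± 0.21 and -0.64 ± 0.21). The type XI chains are known mainly from cartilage fibrils. Col11a1 spread widely within each group, with 3.21, 4.91 and 15.9 CPM with Detergent B, 1.58, 8.13 and 33.5 CPM with Detergent A, and 5.81, 33.4 and 59.3 CPM with PBS. Its log2 fold change was -2.01 ± 0.70 with Detergent B and -1.49 ± 0.68 with Detergent A (edgeR adjusted p = 0.104 and 0.248). Col11a2 had 1.84 to 3.64 CPM with Detergent B and 2.70 to 3.64 CPM with Detergent A, all below the PBS range of 3.65 to 5.60 CPM. That gap was narrow, and the Col11a2 log2 fold change of -0.52 ± 0.16 with Detergent B and -0.40 ± 0.16 with Detergent A did not pass (edgeR adjusted p = 0.0768 and 0.194). With Detergent B, Col11a2 and the fibril-associated Col20a1 were the 2 of 39 collagen genes with all libraries below PBS, against 1.12% of all genes, and with Detergent A they were Col11a2 and Col16a1, against 0.956%. No collagen gene had all libraries of a detergent above PBS. Col27a1, a fibrillar collagen of cartilage, had 8.57 to 23.3 CPM with Detergent B, 8.67 to 31.0 CPM with Detergent A and 11.2 to 24.6 CPM with PBS. Col24a1 and Col2a1, the chain of cartilage type II collagen, averaged below 2 CPM in every group.

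In the type IV class none of 6 genes passed. Col4a1 and Col4a2, the chains of the widespread basement membrane network that also surrounds vessels, had the highest levels. Col4a1 had 211, 275 and 435 CPM with Detergent B, 170, 263 and 505 CPM with Detergent A, and 202, 512 and 570 CPM with PBS. Detergent A replicate 2 and PBS replicate 6 lay at the far ends of their own groups. The Col4a1 log2 fold change was -0.59 ± 0.28 with Detergent B and -0.69 ± 0.28 with Detergent A (edgeR adjusted p = 0.215 and 0.204). Col4a2 had 134 to 242 CPM with Detergent B, 113 to 268 CPM with Detergent A and 134 to 355 CPM with PBS, with a log2 fold change of -0.54 ± 0.23 and -0.69 ± 0.23 (edgeR adjusted p = 0.178 and 0.135). Of the minor chains, Col4a5 averaged 26.3 CPM with Detergent B, 27.9 CPM with Detergent A and 30.8 CPM with PBS, and Col4a6 had a median of 22.2 CPM with Detergent B, 23.3 CPM with Detergent A and 24.6 CPM with PBS. Col4a3 and Col4a4 averaged below 10 CPM in every group. Log2 fold changes of these 4 genes lay between -0.35 and 0.01.

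In the type VI class, whose chains form beaded microfibrils around cells, none of 6 genes passed. Col6a2 had 223, 304 and 332 CPM with Detergent B, 191, 222 and 404 CPM with Detergent A, and 253, 468 and 549 CPM with PBS. Its 12 detergent libraries all lay below the PBS mean, and PBS replicates 4 and 6 lay within the range of Detergent A. The Col6a2 log2 fold change was -0.59 ± 0.20 with Detergent B and -0.75 ± 0.20 with Detergent A (edgeR adjusted p = 0.0925 and 0.0722). Col6a1 had 249 to 417 CPM with Detergent B, 222 to 506 CPM with Detergent A and 300 to 587 CPM with PBS (log2 fold change -0.47 ± 0.21 and -0.61 ± 0.21). Col6a3 had 288 to 470 CPM with Detergent B, 265 to 552 CPM with Detergent A and 312 to 627 CPM with PBS (log2 fold change -0.32 ± 0.19 and -0.47 ± 0.19). The remaining Col6a4, Col6a5 and Col6a6, which lie next to each other on chromosome 9, averaged below 10 CPM in every group. Col6a5 had point estimates above 0, a log2 fold change of 0.40 ± 0.26 with Detergent B and 0.32 ± 0.27 with Detergent A, and did not pass (edgeR adjusted p = 0.373 and 0.536).

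The collagens that tie the epidermis to the dermis did not pass the test. Col17a1, also known as BP180, had 989, 1284 and 1539 CPM with Detergent B, 979, 1490 and 1859 CPM with Detergent A, and 911, 1198 and 1967 CPM with PBS. The highest library of all was PBS replicate 6. The Col17a1 log2 fold change was 0.01 ± 0.19 with Detergent B and 0.20 ± 0.19 with Detergent A (edgeR adjusted p = 0.991 and 0.602). Col7a1, the chain of the anchoring fibrils, had 122, 166 and 205 CPM with Detergent B, 125, 178 and 217 CPM with Detergent A, and 156, 168 and 273 CPM with PBS. Its log2 fold change was -0.18 ± 0.17 with Detergent B and -0.10 ± 0.17 with Detergent A (edgeR adjusted p = 0.544 and 0.791). Of the other transmembrane collagens, Col23a1 averaged 34.6 CPM with Detergent B, 39.2 CPM with Detergent A and 36.4 CPM with PBS, and Col13a1 2.59, 2.43 and 2.18 CPM in the same order of groups. Col25a1 averaged below 1 CPM throughout. None of these 3 passed the test: for Col23a1 the log2 fold change was -0.07 ± 0.18 with Detergent B and 0.11 ± 0.18 with Detergent A, for Col13a1 0.23 ± 0.26 and 0.14 ± 0.26, and for Col25a1 -0.98 ± 0.53 and -1.05 ± 0.53.

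Besides Col16a1, the fibril-associated class held 4 tested genes, none of which passed. Col12a1 and Col14a1 bind the surface of type I fibrils. Col12a1 had 51.2, 88.0 and 99.9 CPM with Detergent B, 49.2, 87.0 and 127 CPM with Detergent A, and 56.3, 114 and 160 CPM with PBS. Col14a1 had 40.0, 73.1 and 92.8 CPM with Detergent B, 9.80, 57.9 and 120 CPM with Detergent A, and 28.2, 100 and 123 CPM with PBS. Their log2 fold changes were -0.43 ± 0.23 and -0.37 ± 0.46 with Detergent B, and -0.31 ± 0.23 and -0.59 ± 0.46 with Detergent A (Col12a1 first in each pair). Col20a1 had 3.20 to 4.79 CPM with Detergent B, 3.44 to 7.63 CPM with Detergent A and 5.06 to 6.71 CPM with PBS, with a log2 fold change of -0.47 ± 0.19 with Detergent B and -0.13 ± 0.18 with Detergent A (edgeR adjusted p = 0.143 and 0.748). Col9a3, known from cartilage, averaged 2.65 CPM with Detergent B, 2.56 CPM with Detergent A and 3.38 CPM with PBS.

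The multiplexins are basement membrane proteoglycans whose ends can be cleaved, type XVIII giving endostatin. Col15a1 had 62.8, 73.2 and 102 CPM with Detergent B, 43.4, 54.4 and 123 CPM with Detergent A, and 64.0, 120 and 151 CPM with PBS, a log2 fold change of -0.57 ± 0.24 and -0.74 ± 0.24 (edgeR adjusted p = 0.168 and 0.127). Col18a1 had 127 to 232 CPM with Detergent B, 155 to 228 CPM with Detergent A and 145 to 317 CPM with PBS (log2 fold change -0.33 ± 0.16 and -0.27 ± 0.16). The short-chain network collagens were low: Col8a1 averaged 8.53 CPM with Detergent B, 6.09 CPM with Detergent A and 6.88 CPM with PBS, and Col8a2 7.01, 7.13 and 8.02 CPM in the same order of groups. Log2 fold changes were 0.31 ± 0.27 with Detergent B and -0.18 ± 0.27 with Detergent A for Col8a1, and -0.18 ± 0.39 and -0.16 ± 0.39 for Col8a2. Col26a1 and Col28a1 averaged below 5 CPM in every group, with log2 fold changes of -0.38 ± 0.36 and -0.15 ± 0.23 with Detergent B, and -0.45 ± 0.36 and -0.39 ± 0.23 with Detergent A (Col26a1 first in each pair). None of these 6 genes passed.

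**Figure D4:**
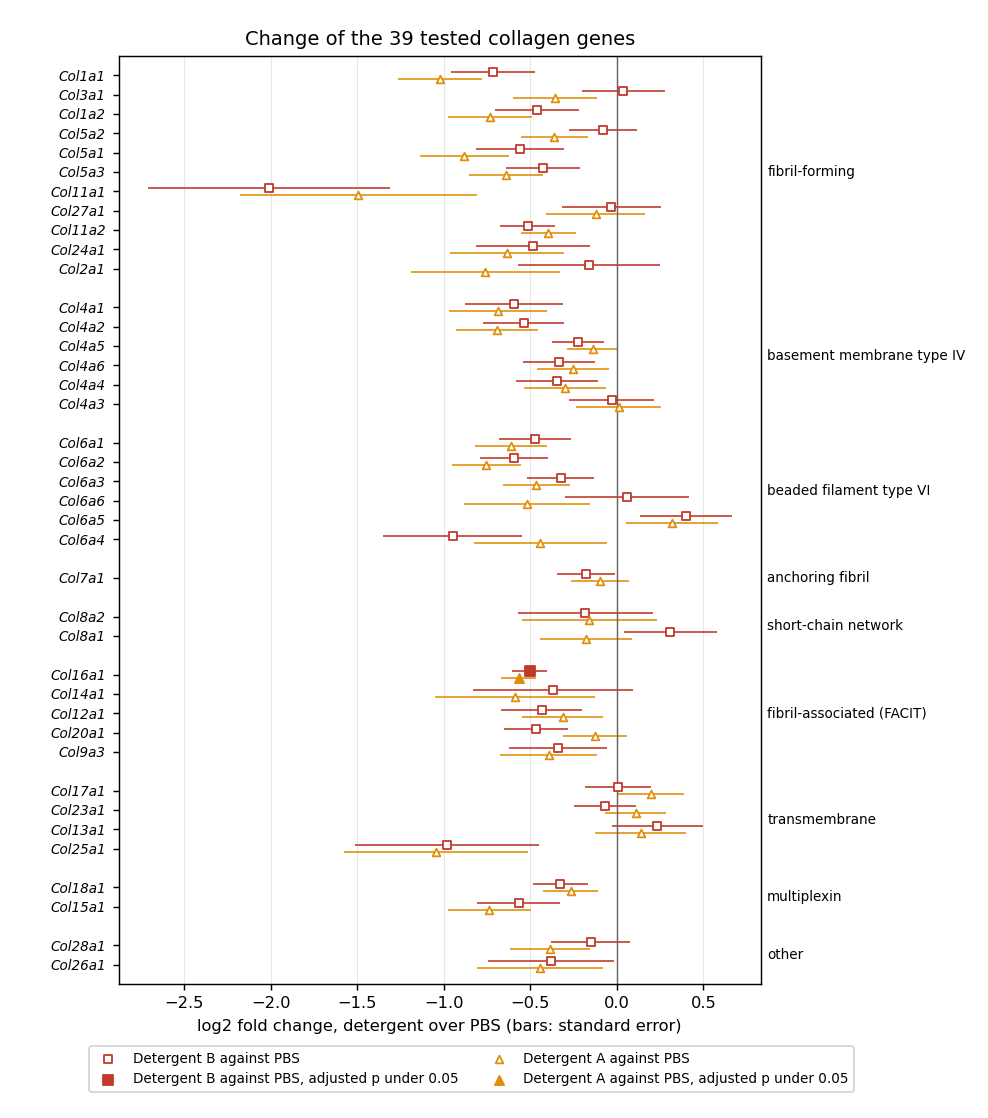
Log2 fold change over PBS of the 39 tested collagen genes with standard errors, Detergent B as squares above Detergent A as triangles, grouped by class; filled symbols mark an adjusted p under 0.05. Only Col16a1 is filled, at -0.50 with Detergent B and -0.57 with Detergent A, and most other estimates lie left of 0.

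The count of collagen genes that fell depended on the tool and on which libraries entered. With Detergent B, DESeq2 called 4 of 39 lower, Col1a1, Col6a2, Col11a2 and Col16a1, against 3.42% of all genes, and limma voom with quality weights called 17, against 14.9%. With Detergent A, DESeq2 called 5, Col1a1, Col1a2, Col5a1, Col6a2 and Col16a1, against 1.98%, and limma voom called 17, against 12.0%. Without PBS replicate 6, edgeR called 7 of 40 collagen genes lower with Detergent B, against 4.32% of all genes, and 9 of 40 lower with Detergent A, against 1.91%. Col1a1, Col4a2, Col6a2 and Col16a1 were in both sets. Without Detergent A replicate 2, edgeR called 12 of 40 lower with Detergent A, against 2.03% of all genes, among them Col1a1, Col1a2, Col5a1, Col5a2, Col5a3, Col6a1, Col6a2 and Col6a3. With the hair keratin score as a covariate, edgeR called 0 lower with either detergent. The share of all genes called in that fit is not given here, so this 0 cannot be set against it.

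Detergent B and Detergent A were not told apart by any collagen gene. By edgeR 0 of 39 passed, and 0.0% of all genes did. No collagen gene had an unadjusted p under 0.05 by edgeR, beside 550 of all 16836 genes. DESeq2 and limma voom also called 0 collagen genes, and 0 of all genes. By limma voom 3 collagen genes were higher with an unadjusted p under 0.05. The smallest adjusted p of a collagen gene was 0.989. The median log2 fold change, Detergent B over Detergent A, was 0.09 for the 39 collagen genes and 0.00 for all genes. For Col16a1 the log2 fold change was 0.06 ± 0.10, for Col1a1 0.30 ± 0.24 and for Col3a1 0.39 ± 0.24. A p that misses the threshold does not show that the detergents act alike.

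Across libraries, many collagen genes followed the hair keratin score. The slope of each gene on the score, with group in the edgeR model so that differences between groups do not enter, was added after the data had been seen. It rose with the score for 12 of 39 collagen genes, against 13.5% of all genes, and fell for 4 of 39, against 11.9%. Slopes are changes in log2 CPM per unit of score. Col11a1 had the steepest slope of the collagen genes, 0.77 ± 0.04 (adjusted p = 9.41e-10, edgeR). Also rising were the basement membrane chains, Col4a1 at 0.27 ± 0.03 and Col4a2 at 0.21 ± 0.03, and the type VI chains Col6a1, Col6a2 and Col6a3 at 0.15 to 0.17. Col15a1 rose at 0.22 ± 0.03, Col14a1 at 0.38 ± 0.09, Col25a1 at 0.51 ± 0.10, Col5a1 at 0.19 ± 0.05, Col27a1 at 0.19 ± 0.07 and Col1a1 at 0.16 ± 0.05. Col1a2 and Col3a1, with slopes of 0.13 ± 0.05 and 0.10 ± 0.05, did not pass (edgeR adjusted p = 0.0663 and 0.192). The epidermal attachment collagens ran the other way, Col17a1 at -0.17 ± 0.03 (adjusted p = 0.000157, edgeR) and Col7a1 at -0.14 ± 0.03, as did Col8a1 at -0.17 ± 0.05 and Col8a2 at -0.29 ± 0.06. With each library left out in turn, 12 of these 16 slopes passed in all 18 edgeR fits. By edgeR, Col1a1 did not pass without PBS replicate 6 (adjusted p = 0.0792) or Detergent A replicate 2 (0.147), and Col5a1 did not without Detergent A replicate 2 (0.0545). Col8a1 did not pass without PBS replicate 6, Detergent A replicate 5 or Detergent B replicates 1 or 3 (adjusted p of 0.0519 to 0.0712). Col27a1 passed in 6 of the 18 fits, with adjusted p up to 0.134 in the others. Col16a1 had a slope of 0.03 ± 0.02 that did not pass (edgeR adjusted p = 0.420).

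**Figure D5:**
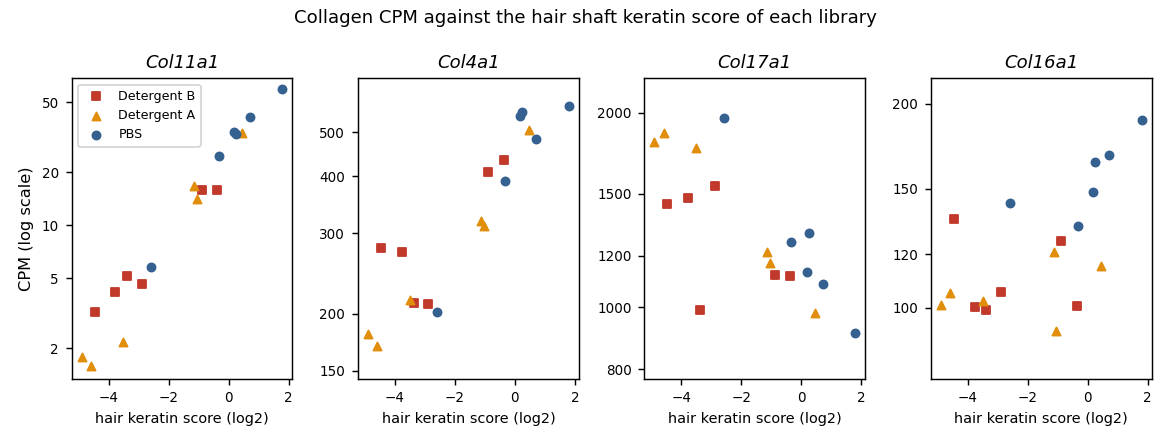
CPM (log axis) of 4 collagen genes in each of the 18 libraries against the hair keratin score, the mean log2 CPM of 12 hair shaft keratins relative to PBS; squares are Detergent B, triangles Detergent A and circles PBS. Col11a1 and Col4a1 climb with the score and Col17a1 declines. For Col16a1 every PBS library lies above every detergent library except Detergent B replicate 5. PBS libraries other than replicate 6 had scores of -0.33 to 1.79, where the only detergent library was Detergent A replicate 2.

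The collagen share of counts and the share of hair shaft genes ran together over the 18 libraries (Pearson's r 0.74, Spearman's rho 0.74), and r was 0.83 without the 2 libraries farthest from the median hair share. With values centred on group means r was 0.62. It was 0.41 without the 2 libraries whose hair share then lay farthest from the median, PBS replicate 6 and Detergent A replicate 2. Within groups r was -0.23 with Detergent B, 0.82 with Detergent A and 0.91 with PBS (n = 6 each). These are descriptions, and the shares come from the same libraries. Hair follicle dermal papilla markers varied alike: the summed level of 7 genes was 34.1 to 88.2 CPM with Detergent B, 32.5 to 119 CPM with Detergent A and 49.2 to 123 CPM with PBS, none was at 0 in all libraries, and 5 of 7 had rising slopes. The summed level of 5 melanocyte genes was 87.2 to 395 CPM with Detergent B, 55.5 to 536 CPM with Detergent A and 66.7 to 525 CPM with PBS, none was at 0 in all libraries, and 5 of 5 had rising slopes. Of 7 endothelial genes, summing to 119 to 204 CPM with Detergent B, 120 to 173 CPM with Detergent A and 108 to 183 CPM with PBS, 0 had rising and 2 had falling slopes, Tie1 and Emcn, and the estimates of all 7 lay below 0. Of 10 epidermal keratinocyte genes, 5 had falling slopes, like Col17a1 and Col7a1, and 0 had rising ones. Of 10 fibroblast genes, 1 had a rising slope, Thy1, and 0 had falling ones. The part of these cell types in the collagen values was not tested.

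Genes that act on collagens were mostly without a call. Over all genes, 1.08% fell and 1.97% rose with Detergent B, and 0.137% fell and 0.0535% rose with Detergent A. At such shares, lists as short as those given here would hold few calls or none. Of 22 genes for collagen synthesis and folding, 1 fell with Detergent B and 1 with Detergent A, and 0 rose. Plod3, a lysyl hydroxylase and glycosyltransferase of collagen, had 55.1, 56.5 and 66.4 CPM with Detergent B, 51.2, 61.8 and 72.6 CPM with Detergent A, and 61.2, 74.4 and 77.8 CPM with PBS. It fell with Detergent B (log2 fold change -0.33 ± 0.09, edgeR adjusted p = 0.0485), and the call was kept in 6 of 18 fits that left out 1 library, with adjusted p up to 0.118. Creb3l1, a transcription factor of secretory cells that make collagen, had 21.8, 24.8 and 27.4 CPM with Detergent B, 16.1, 19.9 and 26.6 CPM with Detergent A, and 27.1, 30.2 and 39.5 CPM with PBS. It fell with Detergent A, whose libraries all lay below PBS (log2 fold change -0.60 ± 0.12, edgeR adjusted p = 0.0407), and that call was likewise kept in 6 of 18 fits, with adjusted p up to 0.133. Serpinh1, the collagen chaperone HSP47, missed the threshold: it had 210 to 249 CPM with Detergent B, 152 to 325 CPM with Detergent A and 241 to 399 CPM with PBS (log2 fold change -0.56 ± 0.15 and -0.66 ± 0.15, edgeR adjusted p = 0.0522 and 0.0577). Fkbp10, a prolyl isomerase for procollagen, had log2 fold changes of -0.43 ± 0.12 and -0.53 ± 0.12, and P4hb, a subunit of the prolyl hydroxylase, of 0.20 ± 0.09 and 0.17 ± 0.09.

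Of 13 tested genes for processing and cross-linking none passed for either detergent. Loxl2, a lysyl oxidase, had a log2 fold change of -0.34 ± 0.23 with Detergent B and -0.58 ± 0.23 with Detergent A, and Bmp1, the main procollagen C-proteinase, of -0.27 ± 0.12 and -0.28 ± 0.12. Pcolce, its enhancer, had 0.06 ± 0.18 and -0.20 ± 0.18, and Adamts3, a procollagen N-proteinase, -1.20 ± 0.50 and -1.03 ± 0.49. Of 16 other genes of the fibrillar matrix none passed. Sparc, a collagen-binding glycoprotein, had a log2 fold change of -0.20 ± 0.18 with Detergent B and -0.37 ± 0.18 with Detergent A, and Fn1, fibronectin, of -0.53 ± 0.28 and -0.72 ± 0.28. Of 14 genes for collagen degradation and its inhibitors, 1 rose with Detergent B and 0 with Detergent A, and 0 fell. Mmp3, the stromelysin that degrades matrix proteins and activates collagenases, had 64.9, 114 and 152 CPM with Detergent B, 82.5, 103 and 162 CPM with Detergent A, and 58.4, 69.0 and 71.1 CPM with PBS. All Detergent A libraries lay above PBS, but only the Detergent B comparison passed (log2 fold change 0.73 ± 0.18 with either detergent, edgeR adjusted p = 0.0414 and 0.0649). The Mmp3 call was kept in 9 of 18 fits that left out 1 library, with adjusted p up to 0.111. Ctsk, the collagen-degrading protease cathepsin K, had 142 to 315 CPM with Detergent B, 129 to 185 CPM with Detergent A and 94.7 to 159 CPM with PBS, and did not pass (log2 fold change 0.61 ± 0.18 and 0.31 ± 0.18, edgeR adjusted p = 0.0696 and 0.369). Of 8 tested collagen receptor genes none passed. Ddr2, a receptor kinase for fibrillar collagen, had a log2 fold change of 0.26 ± 0.09 with Detergent B and 0.30 ± 0.09 with Detergent A, and Ddr1, its relative of epithelia, of -0.30 ± 0.10 and -0.28 ± 0.10. Itgb1, the beta chain shared by the collagen-binding integrins, had -0.03 ± 0.14 and 0.16 ± 0.14. In these 5 lists the median log2 fold change lay between -0.25 and 0.10 with Detergent B and between -0.21 and 0.02 with Detergent A, beside -0.35 and -0.40 for the collagen genes.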

How the data were processed

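Total RNA of 18 mouse skin libraries, 6 each for Detergent B, Detergent A and PBS, was sequenced in bulk. The deposited values are whole-number counts per Ensembl gene, which the authors made with STAR and featureCounts on GRCm38.p5, per the submitters' processing notes. Tool versions, annotation release and strand setting: not given in the sources used here. Of 41605 gene IDs, 41519 matched GENCODE M21, which gave symbols, gene types and exon lengths.

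Groups were taken from the labels. Genes were filtered by filterByExpr and scaled by TMM. One model over all 18 libraries was fitted with edgeR 4.0.16 (robust quasi-likelihood, R 4.3.3), p-values were adjusted over 16836 genes, and the standard error was the log2 fold change divided by the square root of F. Scripts were tested on simulated data. Alternatives used DESeq2 1.42.0, limma 3.58.1 (voom with quality weights), other scaling and filters, a replicate block, and fits without each library. Python 3.11.15, pandas 2.3.3 and matplotlib 3.10.9 made the summaries and figures.

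The members and lists were chosen with earlier results of these data known. A rule named 23 members: those past the threshold, the most abundant pair per kilobase and the gene with the smallest p in each class, and a set of main skin chains. In the pathway lists it named genes past the threshold and the most abundant. Other pathway genes were given for their small p. The text also gives Col5a3, Col11a1, Col11a2, Col20a1 and Col27a1 in full, which were chosen after their values were seen. The hair keratin slope, with a prior count of 2 in its score, was likewise added after the data were seen. In all, 13 members share exon bases with another listed gene, none over 10% of its exon length.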

Additional observations from a re-analysis of the deposited data

Results flagged for a closer look

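In 8 of 114 values tested, a library lay far from the other 5 of its group, where chance alone would give about 1 in 20. PBS replicate 6 accounted for 6 of them. In that library Col17a1 stood at 1967 CPM, against 911 to 1302 CPM in the other PBS libraries, and the summed transmembrane class at 2009 CPM, against 950 to 1344 CPM. Col7a1 stood there at 273 CPM, against 156 to 182 CPM, and so did the anchoring fibril class, of which it is the sole gene, at 273 CPM. Col8a2 stood at 20.8 CPM, against 4.75 to 6.14 CPM, and the summed short-chain class at 30.1 CPM, against 11.1 to 12.7 CPM. The same library had the lowest hair keratin score of the PBS group, -2.59, and Col17a1, Col7a1 and Col8a2 fell with that score across libraries.

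In Detergent A replicate 2, Col5a2 stood at 312 CPM, against 128 to 190 CPM in the other Detergent A libraries. In PBS replicate 5, Col11a2 stood at 5.60 CPM, against 3.65 to 4.37 CPM in the other PBS libraries.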

How the results depend on the processing

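The number of collagen genes called lower with Detergent B was 1 as reported, 4 by DESeq2, 17 by limma voom, 2 with no scaling factor, 3 with only the 12 libraries compared, 0 with the hair keratin score as a covariate, and 0 to 7 with each library left out. With Detergent A it was 1 as reported, 5 by DESeq2, 17 by limma voom, 2 with no scaling factor, 0 with the hair keratin score as a covariate, and 0 to 12 with each library left out. With no scaling factor, 690 of all genes tested were called lower with Detergent B and 155 with Detergent A. The shares of all genes called in the covariate fit and in the fits of only the 12 libraries compared are not given here. No fit called a collagen gene higher or told the detergents apart. With no scaling factor the median of all genes moved to -0.14 with Detergent B and -0.11 with Detergent A on the log2 scale, and that of the collagen genes to -0.48 and -0.50; of the Detergent B calls over all genes 28.2% were then higher, against 64.6% with TMM. For Detergent A, DESeq2 gave 58.7% of calls higher, against 28.1% by edgeR. With the replicate number as a block, Col16a1 passed with Detergent B (edgeR adjusted p = 0.0416) and not with Detergent A (0.0926), so the Detergent A count was 0. Whether the numbers pair the libraries cannot be told from these values. Same-numbered libraries deviated together with correlations of -0.35 to 0.55, and 6 of 18 matched their own number best. Of 2852 values of named genes under the alternatives, 2737 stayed on their side of the threshold, 80 newly passed and 35 no longer did; 76 of the 2737 had the other sign, all in genes that neither fit called. The cause of these differences was not tested. Of the 5 genes under the count filter, Col9a2 passed the filter in 14 alternative fits and was called lower with Detergent A in 2 of them, without PBS replicate 6 and without Detergent A replicate 2; its log2 fold change with Detergent A was -1.66 to -1.45 over the 14.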
